A study of Homo sapiens with 55 samples.

Results

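RNA splicing was compared between K562 cells given guide RNAs against GPATCH8 and control cells, both with an unmutated SF3B1 gene. K562 is an established human leukemia cell line of erythroid and megakaryocytic character. The comparison uses 6 of the 55 samples of the series, chosen by their labels: 4 carry a guide RNA against GPATCH8 (guide 16 or guide 17) and 2 carry the control guide sgRenilla, which targets a luciferase gene that human cells lack. The labels give each sample a replicate and a sequencing run, and the 6 samples are read as 3 libraries, each sequenced in 2 runs. There is 1 control library, so its own spread is not known, and each p-value borrows the spread of the other libraries fitted with it. All 6 are SF3B1 WT, with no other treatment named, and nothing in the labels says whether a guide was grown as a pool or a clone. Other K562 cells of the series serve below as further comparisons that share no library with these: cells with the SF3B1 K700E knock-in (1 sgRenilla and 2 sgGPATCH8 libraries), and cells that overexpress SRSF2 WT or U2AF1 WT (3 sgRenilla and 3 sgGPATCH8 libraries each). Values of SF3B1 WT cells with guides against SUGP1 (2 libraries in 2 runs each) are set beside some results, and these are compared with the same sgRenilla library. The fits also hold libraries of K700E cells with guides against SUGP1, and of cells with SRSF2 P95H or U2AF1 S34F. The spread of these libraries enters the p-values of their panels. The series as a whole asks how deletion of GPATCH8 changes splicing with and without mutations of splicing factors. Values below are usages: the percentage of an event's transcripts that carry its first isoform, which is the included exon for a cassette exon, the spliced form for a retained intron, and the shorter intron for alternative donors and acceptors. Differences are in percentage points.

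GPATCH8 is a nuclear protein with a G-patch, a short glycine-rich domain through which such proteins bind and activate helicases of the DEAH family, among them DHX15. SUGP1, another G-patch protein, works beside SF3B1, the U2 snRNP subunit that holds the branch site before an intron's acceptor is chosen. Mutant SF3B1 loses its hold on SUGP1 and uses cryptic acceptors.

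The files hold usages and no expression levels, so loss of GPATCH8 RNA or protein could not be checked. Events of genes of the erythroid and megakaryocytic lineage had a value in 98.3 to 99.1% of cases over the 6 columns, against 30 to 45% for lymphoid markers, 33.3 to 54.2% for kidney and neural markers and 24.3 to 33.8% for epithelial and hepatocyte markers. Between the runs of 1 library, the median absolute difference over tested events was 4 to 5 points. Guide 16 and guide 17 with runs averaged differed by a median of 2.5 points, and each differed from sgRenilla by a median of 3 points. Run 2 of both sgGPATCH8 libraries stood apart in events of tandem 3′ untranslated regions, in which the first isoform ends at the nearer site. Median usage of these was 56 and 58% there, against 45 and 44% in run 1 and 44 and 40.5% in the sgRenilla runs. Counts that leave out this type of event say so below.

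Over 50823 events tested with limma on log-odds, 3 passed an adjusted p of 0.05 with a difference of at least 5 points, which is 0.0059% of those tested. An unadjusted p under 0.05 was reached by 4807. Of the 3, 2 were retention events of 1 intron of DDX11. The other was a tandem untranslated region without a gene name, in which only run 2 of the sgGPATCH8 libraries differed from the control. With 1 control library the list of calls is short, so events are also described by a plain rule with no test: an event is set apart when all 4 sgGPATCH8 columns lie at least 5 points above, or below, both sgRenilla columns. Of 75712 events with all 6 values, 875 (1.16%) were set apart higher and 579 (0.765%) lower. Of those with an unadjusted p under 0.05 and a gene name, the plot of the largest differences shows the 12 genes with the largest difference in each direction.

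**Figure D1:**
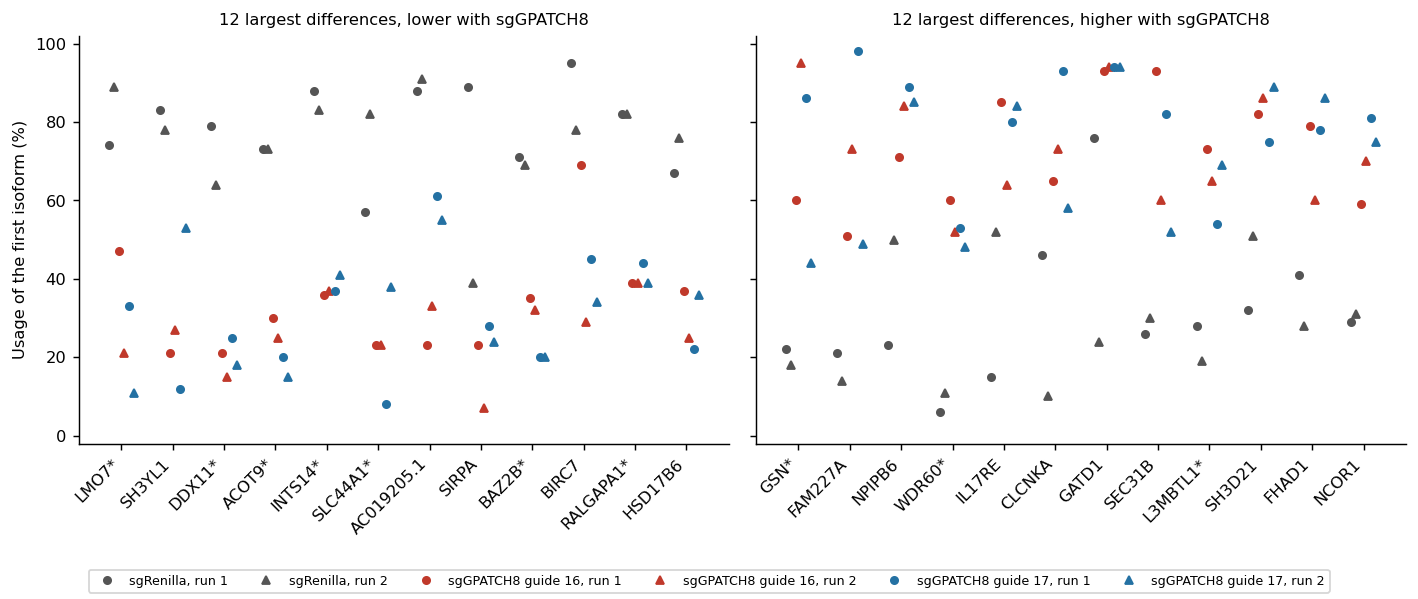
Usage of the first isoform (%) in each of the 6 columns for the 12 genes with the largest differences lower (left) and higher (right) with sgGPATCH8, 1 event a gene; grey marks sgRenilla, red guide 16, blue guide 17, circles run 1 and triangles run 2. An asterisk marks the 7 lower and 3 higher events that were also set apart the same way in SF3B1 K700E cells; DDX11, ACOT9, INTS14, RALGAPA1 and WDR60 show 2 tight groups of points, whereas GSN, SLC44A1 and SIRPA spread widely within a group.

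DDX11 encodes a DNA helicase that works with the cohesion machinery at replication forks. Its intron 8, on the plus strand of chromosome 12, runs in the retention events from the exon base at 31242424 (hg19) to one of 3 acceptors. These are numbered from the donor. Other events have a further acceptor 3 bases after the third, and a further donor 5 bases upstream. Neither of those choices was set apart in WT cells. The donor at 31242424 is shown because both called retention events share it. It comes from a GENCODE 29 transcript that is annotated with the whole intron, one of 2 such transcripts, and capitals mark the GT that starts the intron.
DDX11 donor, chr12:31242413-31242442: gaagcaggcacgGTagccactgggaccatg
The first acceptor lies 46 bases before the second. The intron that ends at the second acceptor is 395 bases long with 52.4% G or C.

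The intron was spliced in much of the control's RNA and mostly retained without GPATCH8. Against the retained form, splicing to acceptor 3 had a usage of 62 and 42% in the 2 sgRenilla runs, 4 and 2% with guide 16 and 3 and 4% with guide 17. The groups did not overlap in either run, and the mean fell from 52.0% (1 library) to 3.25% ± 0.354 (SD, n = 2 libraries), a log2 change in odds of -4.64 ± 0.22 (SE, limma adjusted p = 0.032). Splicing to the first acceptor fell too, with a usage of 66 and 42% with sgRenilla, 5 and 3% with guide 16 and 3 and 6% with guide 17, a log2 change in odds of -4.43 ± 0.24 (limma adjusted p = 0.033). Splicing to the second acceptor was 79 and 64% with sgRenilla, 21 and 15% with guide 16 and 25 and 18% with guide 17, which did not pass the test (limma adjusted p = 0.076). Among spliced forms alone, use of the first acceptor was 13 and 14% with sgRenilla, 42 and 54% with guide 16 and 37 and 49% with guide 17. These events share reads and measure 1 intron several ways, and they do not agree on the choice of acceptor. Among spliced forms, use of the first acceptor rose. Against the retained form, the first acceptor fell more (log2 change in odds -4.43) than the second (-3.27). The source of this disagreement was not tested, so the sizes of the changes are uncertain. DDX11 has near-identical copies elsewhere in the genome, so reads may be split among them and the values are uncertain to that extent. Both calls were lost when either guide was left out, with 0 events called in all in each case, and in the fits of run 1 alone, which called 0, and of run 2 alone, which called 6 events, all higher.

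The last intron of DDX11, 75 bases long, lay the other way: it was spliced in 65 and 60% with sgRenilla, 79 and 74% with guide 16 and 78 and 74% with guide 17 (limma adjusted p = 0.3). Retention of intron 8 was called in 2 other K562 panels that share no sample with this one. In cells that overexpress SRSF2 WT, splicing to acceptor 3 fell from 28.3% ± 4.93 to 2.67% ± 0.577 (SD, n = 3 libraries each; limma adjusted p = 0.0003). In cells that overexpress U2AF1 WT it fell by 28.7 points (limma adjusted p = 0.0033). In K700E cells the difference was -56.5 points, and the test of the difference between the genotypes did not pass (limma interaction, -7.75 points, adjusted p = 0.98). The WT sgSUGP1 libraries, compared with the same sgRenilla library, had 64 and 45% with one guide and 61 and 51% with the other.

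**Figure D2:**
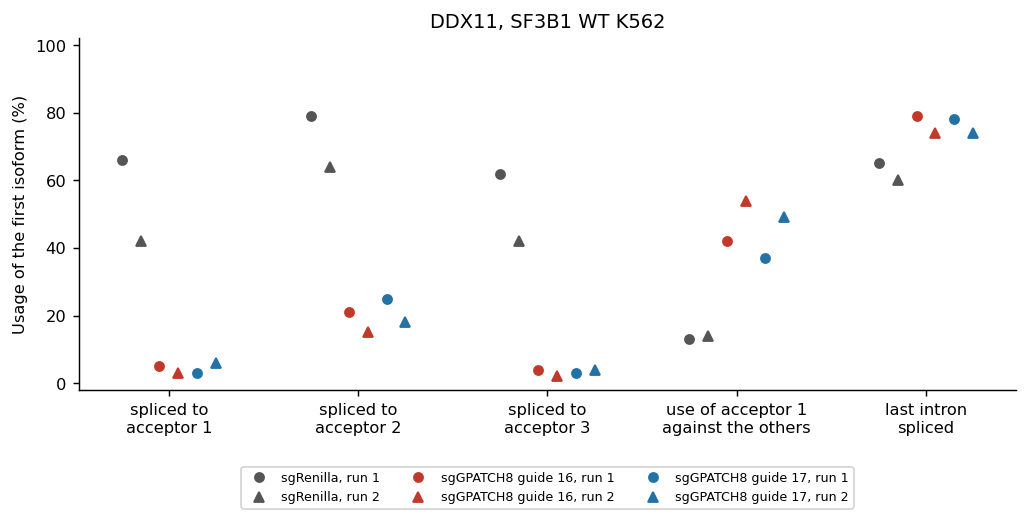
Usage (%) of 5 DDX11 splicing events in the 6 columns, with colours for guides and symbols for runs; acceptors 1, 2 and 3 are numbered from the donor. Splicing of intron 8 to acceptors 1 and 3 lay at 42 to 66% with sgRenilla and at 2 to 6% in all 4 sgGPATCH8 columns, while the last intron lay higher with sgGPATCH8.

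Short cassette exons were set apart lower without GPATCH8 more often than longer ones, as a description with no test in the SF3B1 WT cells. Exons whose length could be read from the annotation were split by length, a property that the rule for setting events apart did not use. Of 396 tested exon events of 30 bases or less, 27 (6.82%) were set apart lower and 7 (1.77%) higher. Of 4860 exon events over 150 bases, 41 (0.844%) were set apart lower and 67 (1.38%) higher, and over all 17957 lengths the shares were 1.19% lower and 1.65% higher. The share set apart lower was 2.37% for exons of 31 to 60 bases and 1.14% for exons of 61 to 90 bases. The share set apart higher stayed between 1.38 and 2.17% in all 5 length classes. Median inclusion with sgRenilla was 36.5% in the shortest class and 69.5% in the longest, and the part of this difference in the result was not tested.

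**Figure D3:**
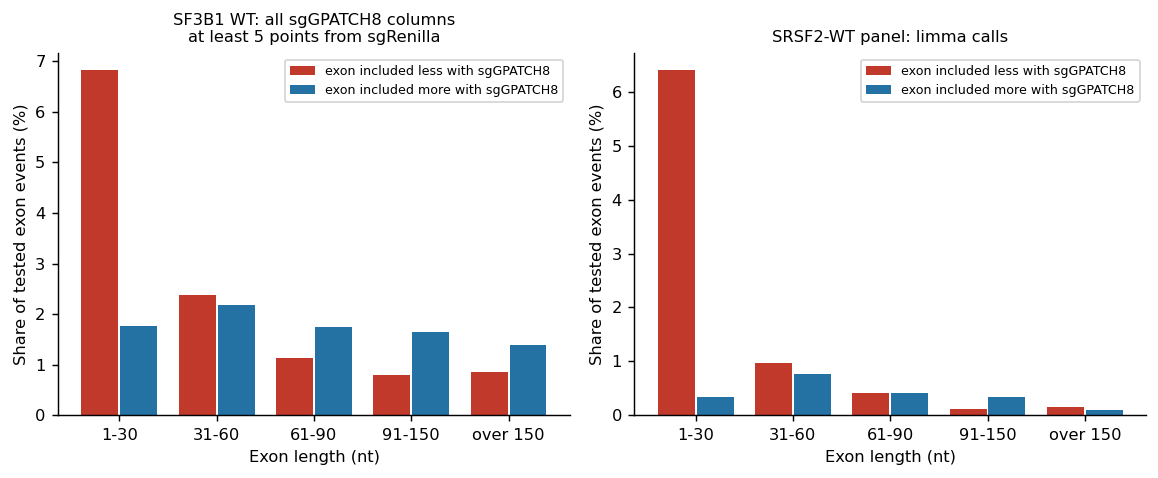
Share (%) of tested cassette exon events by exon length (nt) that were lower (red) or higher (blue) with sgGPATCH8; left, set apart by at least 5 points in SF3B1 WT; right, limma calls in the SRSF2-WT panel, which shares no library. In both panels the red bar is tallest for exons of 1 to 30 nt, at 6.82% and 6.4%.

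In the SRSF2-WT panel each event was tested, and the share called was again counted by length, with no test of short against long exons. There 19 of 297 exon events of 30 bases or less (6.4%) were called lower and 1 (0.337%) higher, against 6 lower (0.152%) and 4 higher (0.101%) of 3943 events over 150 bases. The background of all events in that panel is 0.284% called lower and 0.207% called higher. In the U2AF1-WT panel, 3 of 321 short exon events were called lower, none higher (background 0.0276% lower and 0.0046% higher). With the replicate number as a block, which pairs the samples of that panel, it was 9 lower (2.8%) and none higher (background 0.0506% lower and 0.0069% higher).

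Of the cassette exons set apart lower in both WT and K700E cells, 49 distinct exons could be measured. Their median length was 45 bases, 16 had 30 bases or less, and 42 (85.7%) were a multiple of 3, so that skipping them keeps the reading frame. Among all exon events with 6 values, the median was 112 bases, 2.41% had 30 bases or less and 41.1% were a multiple of 3. The 51 exons set apart higher in both had a median of 84 bases, none of 30 or less, and 20 (39.2%) were a multiple of 3. Exon G or C content did not separate these groups: the median was 49.1% for the lower exon events, 50% for the higher and 49.3% for all. All 16 short exons are coding and all 16 are a multiple of 3, against 66.9% of tested exon events of 30 bases or less. They were chosen after their values were seen, and are shown whole because their length is what they share; capitals mark the exon, and lower case the 10 bases on each side from the neighbouring exons of a GENCODE 29 transcript. Positions of the exons are hg19.
ABI1, chr10:27060004-27060018, minus strand: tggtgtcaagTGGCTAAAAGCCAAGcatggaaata
ACLY, chr17:40052873-40052902, minus strand: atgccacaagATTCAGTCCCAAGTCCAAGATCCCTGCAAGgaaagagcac
ACOT9, chrX:23752458-23752484, minus strand: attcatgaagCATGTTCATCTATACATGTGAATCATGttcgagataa
AFDN, chr6:168314083-168314103, plus strand: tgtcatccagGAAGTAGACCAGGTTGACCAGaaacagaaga
BAZ2B, chr2:160253585-160253611, minus strand: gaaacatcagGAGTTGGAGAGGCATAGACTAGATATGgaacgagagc
CLASP2, chr3:33605456-33605458, minus strand: tcatggcaagAGAgtattcagca
DIAPH1, chr5:140967791-140967817, minus strand: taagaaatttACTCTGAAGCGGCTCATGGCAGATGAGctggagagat
DNM2, chr19:10919245-10919256, plus strand: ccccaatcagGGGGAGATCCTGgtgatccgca
DST, chr6:56333780-56333797, minus strand: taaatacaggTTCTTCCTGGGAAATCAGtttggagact
FLNA, chrX:153585619-153585642, minus strand: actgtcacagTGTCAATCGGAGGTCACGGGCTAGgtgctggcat
INCENP, chr11:61908972-61908983, plus strand: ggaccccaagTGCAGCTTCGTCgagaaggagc
LMO7, chr13:76383290-76383319, plus strand: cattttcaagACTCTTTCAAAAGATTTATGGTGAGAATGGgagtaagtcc
PICALM, chr11:85689113-85689136, minus strand: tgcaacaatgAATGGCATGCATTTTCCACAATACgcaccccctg
PSAP, chr10:73583645-73583653, minus strand: gatgcacatgCAGGATCAGcaacccaagg
TRAPPC13, chr5:64951463-64951480, plus strand: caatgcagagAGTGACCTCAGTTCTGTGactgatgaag
UGGT1, chr2:128913966-128913989, plus strand: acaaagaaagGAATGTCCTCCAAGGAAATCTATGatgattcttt

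The exons are described by what their genes do, with no test of any grouping. FLNA, a filamin that crosslinks actin, included its 24-base exon in 64 and 65% with sgRenilla, 36 and 36% with guide 16 and 24 and 25% with guide 17. DST, a linker between intermediate filaments, actin and microtubules, included its 18-base exon in 52 and 63% with sgRenilla, 21 and 19% with guide 16 and 22 and 11% with guide 17. AFDN, an actin-binding protein of cell junctions, included its 21-base exon in 49 and 57% with sgRenilla, 25 and 24% with guide 16 and 14 and 17% with guide 17. In each of these the 4 sgGPATCH8 columns lay more than 20 points below both control columns. CLASP2, a microtubule plus-end protein, included a 3-base exon in 86 and 92% with sgRenilla, 73 and 77% with guide 16 and 73 and 67% with guide 17. DIAPH1, a formin that elongates actin filaments, included its 27-base exon in 27 and 34% with sgRenilla, 19 and 18% with guide 16 and 15 and 14% with guide 17. ABI1, a subunit of the WAVE actin regulator, included its 15-base exon in 14 and 14% with sgRenilla, 6 and 4% with guide 16 and 1 and 2% with guide 17. These last 3 lay closer to the control, without overlap, which the rule that chose them requires.

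ACOT9, a mitochondrial acyl-CoA thioesterase, had little spread between its runs: its 27-base exon was included in 73 and 73% with sgRenilla, 30 and 25% with guide 16 and 20 and 15% with guide 17, a mean of 73.0% against 22.5% ± 7.07 (SD, n = 2 libraries; limma adjusted p = 0.24). UGGT1, which senses misfolded glycoproteins in the endoplasmic reticulum, included its 24-base exon in 62 and 57% with sgRenilla, 26 and 23% with guide 16 and 17 and 17% with guide 17. ACLY, the enzyme that makes cytosolic acetyl-CoA from citrate, included its 30-base exon in 63 and 65% with sgRenilla, 37 and 40% with guide 16 and 39 and 42% with guide 17. In ACOT9 and UGGT1 guide 17 lay below guide 16 in both runs, whereas in ACLY it lay above. PICALM, a clathrin adaptor, included its 24-base exon in 13 and 14% with sgRenilla, 5 and 4% with guide 16 and 3 and 2% with guide 17. INCENP, a scaffold of the chromosomal passenger complex, included its 12-base exon in 46 and 42% with sgRenilla, 32 and 27% with guide 16 and 30 and 22% with guide 17. BAZ2B, a chromatin reader with a bromodomain, included its 27-base exon in 71 and 69% with sgRenilla, 35 and 32% with guide 16 and 20 and 20% with guide 17. LMO7, an actin-associated protein of cell junctions, included its 30-base exon in 74 and 89% with sgRenilla, 47 and 21% with guide 16 and 33 and 11% with guide 17. The WT sgSUGP1 libraries, set against the same control, had 57, 62, 48 and 73% for LMO7. TRAPPC13, a subunit of a vesicle-tethering complex, included its 18-base exon in 61 and 62% with sgRenilla, 39 and 34% with guide 16 and 35 and 18% with guide 17. PSAP, the precursor of lysosomal saposins, included its 9-base exon in 15 and 15%, 6 and 7%, and 4 and 6%. DNM2, a dynamin that pinches off vesicles, had the smallest difference of the 16, with its 12-base exon at 71 and 68%, 61 and 62%, and 63 and 56%. For DNM2 the sgSUGP1 columns, with that shared control, were at 64, 57, 62 and 58%, which overlaps the sgGPATCH8 columns. None of the 16 passed the limma test in the WT comparison. In the SRSF2-WT panel all 16 were lower and 15 were called (background 0.284% called lower), and in the U2AF1-WT panel all 16 were lower and 3 were called (background 0.0276% called lower), ACOT9, CLASP2 and PICALM. With the replicate block 7 of the 16 were called lower there (background 0.0506%), the other 4 being ABI1, AFDN, BAZ2B and UGGT1. The median difference over the 16 was -27.2 points here, -28.9 points in the SRSF2-WT panel and -24.2 points in the U2AF1-WT panel.

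**Figure D4:**
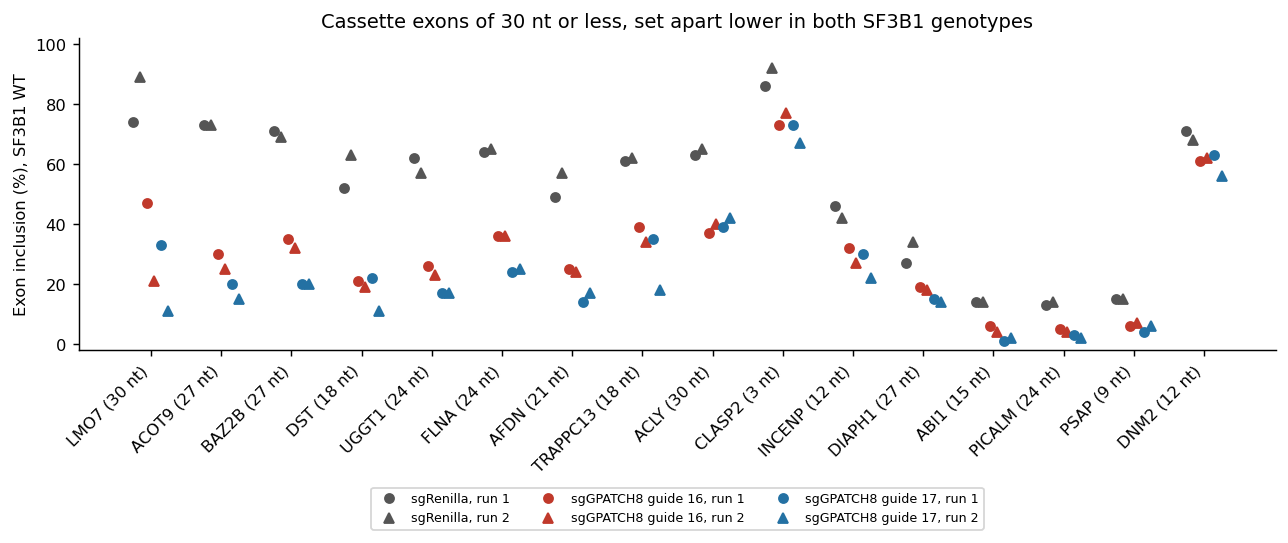
Inclusion (%) of the 16 cassette exons of 30 nt or less that were set apart lower in both SF3B1 genotypes, in the 6 SF3B1 WT columns, ordered by size of difference; colours mark guides and symbols runs. The rule that chose the 16 places the 4 sgGPATCH8 points below both grey control points; differences of means run from -53.5 to -9.0 points.

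In the list of actin and tubulin genes, chosen with earlier results known, more events were set apart lower than higher, unlike over all events. Of its 513 events with 6 values, 9 were set apart lower and 2 higher, together 2.14% against 1.92% of all events (0.765% lower and 1.16% higher). None of its 201 tested events was called. At an unadjusted p under 0.05, 8 were higher and 16 lower, against 6% higher and 3.46% lower of all tested events. The median difference of the 201 was 0.25 points, against 0.5 points over all tested events. The list was not tested as a group. It does not hold GSN, an actin-severing protein described below, which was set apart higher in both genotypes. The lower events of FLNA, DST, CLASP2 and DIAPH1 are the short exons already given above. The 9 lower events were all set apart lower in K700E cells too. ACTN4, an actinin that bundles actin, chooses between a pair of mutually exclusive exons after its intron 7. The upstream one was used in 96 and 95% with sgRenilla, 66 and 68% with guide 16 and 68 and 68% with guide 17 (limma adjusted p = 0.076). MYL6, a myosin light chain, included its alternative exon in 27 and 28% with sgRenilla, 12 and 12% with guide 16 and 7 and 9% with guide 17. SPTAN1, the non-erythroid alpha spectrin, included its exon after intron 22 in 72 and 75% with sgRenilla, 53 and 56% with guide 16 and 49 and 53% with guide 17. The MYL6 and SPTAN1 groups do not overlap, which the rule for setting events apart requires. EPB41, which ties spectrin to the red cell membrane, had 3 events that share exons. The one after intron 14 was included in 41 and 43% with sgRenilla, 16 and 20% with guide 16 and 11 and 15% with guide 17. In the SRSF2-WT panel that EPB41 exon was at 5.67% already with the control guide.

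Among alternative acceptors, INTS14, a subunit of the Integrator complex that cleaves nascent RNA, lay far below the control with both guides. Its intron 1 ends at 1 of 2 acceptors 17 bases apart, on the minus strand of chromosome 15, and the upstream one was used in 88 and 83% with sgRenilla, 36 and 37% with guide 16 and 37 and 41% with guide 17 (mean 85.5% against 37.8% ± 1.77, SD, n = 2 libraries; limma adjusted p = 0.15). A second first exon spliced to the same pair of acceptors had 80 and 81% with sgRenilla and 25 to 43% in the sgGPATCH8 columns. Both were called lower in the SRSF2-WT panel. MOV10, an RNA helicase, had its intron 20 spliced in 82 and 83% with sgRenilla, 44 and 49% with guide 16 and 50 and 56% with guide 17. RALGAPA1, a regulator of Ral GTPases, included a 31-base exon in 82 and 82% with sgRenilla, 39 and 39% with guide 16 and 44 and 39% with guide 17. H2AFY, the histone variant macroH2A1, has alternative exons after its intron 5. The exon nearer to the 3′ end was included in 27 and 30% with sgRenilla, 8 and 7% with guide 16 and 5 and 7% with guide 17, and the other in 56 and 56%, 72 and 80%, and 78 and 79%. One H2AFY exon thus lay lower and the other higher in all 4 sgGPATCH8 columns.

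Among events that lay higher without GPATCH8 was one in WDR60, a subunit of the dynein that moves cargo in cilia. At its intron 10, a donor that shortens the intron by 2688 bases was used in 6 and 11% with sgRenilla, 60 and 52% with guide 16 and 53 and 48% with guide 17, a mean of 8.5% against 53.2% ± 3.89 (SD, n = 2 libraries), a log2 change in odds of 3.47 ± 0.26 (SE; limma adjusted p = 0.076). It rose by 40.3 points in the SRSF2-WT panel (limma adjusted p = 0.00014). ALDOC, a glycolytic aldolase, included an exon of its 5′ untranslated region in 15 and 13% with sgRenilla, 59 and 54% with guide 16 and 48 and 48% with guide 17. SIRT2, a deacetylase of tubulin and histones, included its first alternative exon in 28 and 37% with sgRenilla, 62 and 72% with guide 16 and 57 and 66% with guide 17. For these 3 genes the sgGPATCH8 columns were 20 points or more above the control in both runs. L3MBTL1, a reader of methylated histones, included a 92-base exon in 28 and 19% with sgRenilla, 73 and 65% with guide 16 and 54 and 69% with guide 17. RFNG, a glycosyltransferase that modifies Notch, had an intron of its 5′ untranslated region spliced in 16 and 20% with sgRenilla, 57 and 70% with guide 16 and 46 and 56% with guide 17.

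Some genes that act in splicing themselves had events set apart. TRA2A, an activator of exon inclusion, used the upstream of its mutually exclusive exons in 13 and 8% with sgRenilla, 42 and 36% with guide 16 and 42 and 29% with guide 17. PRPF4B, a kinase of the spliceosome, used the shorter-intron donor of intron 17 in 24 and 27% with sgRenilla, 52 and 56% with guide 16 and 45 and 52% with guide 17. ACIN1, which joins the exon junction complex, included an exon after its first intron in 32 and 32% with sgRenilla, 55 and 63% with guide 16 and 53 and 54% with guide 17. SLU7, which helps the second step of splicing, lay the other way: its upstream exclusive exon in the 5′ untranslated region had 69 and 64% with sgRenilla, 47 and 39% with guide 16 and 44 and 41% with guide 17. PRPF4B, ACIN1 and SLU7 were called in the same direction in the SRSF2-WT panel and TRA2A was not (limma adjusted p = 0.17). Of 139 events of SR proteins and TRA2, 3 were set apart higher and 0 lower; of 93 tested, 13 were higher and 0 lower at an unadjusted p under 0.05, with a median difference of 0.25 points. Over all events the set-apart share is 1.92%, near the 2.16% of this list, and 6% of tested events were higher and 3.46% lower at that p. Of 227 events of hnRNP and PTB proteins none was set apart, and none of 240 events of G-patch proteins and DEAH helicases. No event of these 3 lists was called with limma (unadjusted p under 0.05 for 13, 4 and 9 events).

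For the other lists, the share of events with 6 values that was set apart in either direction is read against 1.92% of all events. No list was tested against that share. It was highest for the red cell membrane skeleton (4.55%) and replication and cohesion helicases (4.38%), where several events come from 1 gene. For 4 lists it rests on few events and is not read as different from all events. These are kinases of splicing factors (3.03%), the exon junction complex and nonsense-mediated decay (2.65%), other core spliceosome proteins (2.27%) and apoptosis (2.09%). It was below 1.92% for the rest. For known targets of mutant SF3B1 it was 2 of 323 events, both lower, and none was called among 209 tested (9 higher and 9 lower at an unadjusted p under 0.05). None of 219 events of heme synthesis and mitochondrial iron and none of 509 events of ribosomal protein genes was set apart. For U2 snRNP and branch site recognition it was 1 higher and 1 lower of 210, for other core spliceosome proteins 4 higher and 2 lower of 264, for the exon junction complex and nonsense-mediated decay 3 higher of 113, and for kinases of splicing factors 2 higher and 1 lower of 99. For 3′ end processing it was 1 lower of 161 and for snoRNA host genes 1 lower of 171. DNA repair had 1 higher and 1 lower of 538, chromatin remodelling 3 higher of 474, cell cycle and checkpoint genes 2 higher and 1 lower of 287, apoptosis 4 higher and 1 lower of 239, and signalling through NF-kappaB and MAP kinases 2 higher and 1 lower of 245. For erythroid and leukemia transcription factors it was 1 of 161 each way. The higher one, an exon of the 5′ untranslated region of NFE2, a factor of megakaryocytes and erythroid cells, was included in 10 and 8% with sgRenilla, 23 and 19% with guide 16 and 19 and 18% with guide 17. The red cell membrane skeleton had 6 lower and 2 higher of 176, 3 of the lower ones from EPB41. Replication and cohesion helicases had 7 lower and 4 higher of 251, of which DDX11 and RECQL5 make up those shared with K700E cells. DDX11 gives 6 of these, and all but its last intron overlap intron 8.

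GPATCH8 itself had 4 exon events with all 6 values, and 2 acceptor events with a value in 1 of the 6 columns. An alternative exon after its intron 2 was included in 82 and 88% with sgRenilla, 94 and 89% with guide 16 and 96 and 92% with guide 17 (limma adjusted p = 0.54), and another after the same intron in 2 and 6%, 2 and 1%, and 2 and 1%. An exon after its intron 3 was at 9 and 5%, 4 and 11%, and 3 and 3%. An exon after its intron 1 was at 96 and 98%, 96 and 99%, and 99 and 99%. None of these 4 events was set apart. SUGP1 had an acceptor event after intron 4 at 8 and 10% with sgRenilla, 9 and 12% with guide 16 and 5 and 10% with guide 17, and the retained intron 4 of SF3B1 was spliced in 93 and 93%, 92 and 95%, and 92 and 95%. All DHX15 events with 6 values were at 0 to 2% or at 97 to 99% in every column.

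Some of the largest differences in WT cells had no counterpart in the other cells. Of the 12 lower events in the plot of the largest differences, 7 were also set apart lower in K700E cells (background 1.06%), and of the 12 higher ones, 3 were set apart higher there (background 0.805%). In some of the others the 2 sgRenilla runs differed widely. GATD1 used an acceptor in 76 and 24% with sgRenilla, 93 and 94% with guide 16 and 94 and 94% with guide 17, while the WT sgSUGP1 libraries, which share that control, had 88, 88, 81 and 73%. IL17RE included an exon in 15 and 52% with sgRenilla, 85 and 64% with guide 16 and 80 and 84% with guide 17. NPIPB6, of a family of near-identical copies, included an exon in 23 and 50% with sgRenilla and 71 to 89% with sgGPATCH8, and 70, 80 and 78% in the 3 sgSUGP1 columns with a value. HSD17B6 had 67 and 76% with sgRenilla, 37 and 25% with guide 16, 22 and 36% with guide 17, and 28, 24, 44 and 11% with sgSUGP1. In NPIPB6 and HSD17B6 every sgGPATCH8 and sgSUGP1 column with a value lay on the same side of both sgRenilla columns. GSN, the actin-severing protein gelsolin, was set apart higher in both genotypes, at 22 and 18% with sgRenilla, 60 and 95% with guide 16 and 86 and 44% with guide 17, and the runs of a guide differed there by over 30 points.

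By type of event, retained introns had 70 (1.41%) lower, which is more retention, and 41 (0.828%) higher of 4949. Cassette exons had 375 (1.1%) higher and 257 (0.755%) lower of 34035. Alternative acceptors had 259 (1.33%) higher and 150 (0.773%) lower of 19411, alternative donors 46 (0.445%) higher and 50 (0.484%) lower of 10329, and mutually exclusive exons 63 (1.34%) higher and 46 (0.977%) lower of 4708. In K700E cells the lean was reversed for acceptors (149 higher and 249 lower) and cassette exons (299 higher and 352 lower). Retained introns there had 47 higher and 53 lower, donors 52 and 57, and mutually exclusive exons 64 and 43. The source of the reversal was not tested. In WT cells, tandem untranslated regions had 91 (3.99%) higher and 6 (0.263%) lower of 2280. Their median difference was 5 points, against 0.25 points over all other tested events. The called one, on the minus strand of chromosome 3 with its start at 195777847, was at 0 and 0% with sgRenilla, 0 and 18% with guide 16 and 0 and 20% with guide 17, so that only run 2 differed (limma adjusted p = 0.043). Introns set apart lower in both genotypes had a median length of 315 bases, against 239 for all retained introns with 6 values. Acceptor pairs set apart in WT had a median distance of 3 bases for the higher and 9.5 for the lower ones, against 3 for all. The fewer pairs set apart in both genotypes had a median of 31.5 bases in each direction. Of all 19411 pairs 9969 are 3 bases apart, and of those set apart in both genotypes 3 of the 28 lower and 4 of the 26 higher ones are.

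Agreement with the K700E cells, which share no library with these, was counted without tandem untranslated regions. Of 724 events set apart higher in WT with all values in K700E, 117 (16.2%) were set apart higher there (background 0.805%) and 19 (2.62%) lower. Of 514 set apart lower in WT, 114 (22.2%) were set apart lower in K700E (background 1.06%) and 7 (1.36%) higher. The 231 shared events are 17% of the WT list and 16.9% of the K700E list, and they fall in 186 named genes. They comprise 113 cassette exons, 54 acceptor events, 35 retained introns, 15 pairs of mutually exclusive exons and 14 donor events. In K700E cells limma called 7 of 50823 events (0.0138%). A test of the difference between the genotypes called 15 of 50823 events (0.0295%). Of these, 14 were tandem untranslated regions and the other was an exon of DNAJC2, a ribosome-bound chaperone, which was at 97 and 97% with WT sgRenilla, 97 and 77% with guide 16 and 98 and 75% with guide 17. In K700E cells it was at 98 and 55% with sgRenilla and at 98, 96, 96 and 96% with sgGPATCH8. The low values are thus in run 2 of the same 3 columns that stand apart in tandem untranslated regions. In the 14 tandem events called, the high values are in these 3 columns too. The part of those columns in the calls was not tested.

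The 231 shared events were then read in the 2 panels that had no part in choosing them. In the SRSF2-WT panel 225 were tested, 212 (94.2%) differed in the same direction, and 87 (38.7%) were called that way with none called the other way (background 0.207% higher and 0.284% lower). Their median difference in the WT direction was 10.3 points. In the U2AF1-WT panel 222 were tested, 207 (93.2%) differed in the same direction, and 11 were called that way with none the other way (background 0.0046% higher and 0.0276% lower). Those 87 are 40.3% of all calls of the SRSF2-WT panel, and the 11 are 78.6% of the 14 calls of the U2AF1-WT panel. With the replicate block that panel has 25 calls, of which 19 are shared events called in the same direction and 0 in the other. The 1126 events set apart in WT but not the same way in K700E were different. In the SRSF2-WT panel 568 of 986 (57.6%) had the same sign and 409 the opposite, with 7 called the same way and 1 the other way. In the U2AF1-WT panel 487 of 909 (53.6%) had the same sign and 400 the opposite, and 0 were called. Over all events tested in both, 20205 of 40504 (49.9%) had the same sign and 18060 the opposite in the SRSF2-WT panel. In the U2AF1-WT panel it was 19785 of 40637 (48.7%) and 18456. In these 2 counts over all events, a difference of 0 in both comparisons counts on both sides. A difference of 0 in only 1 comparison counts on neither side.

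**Figure D5:**
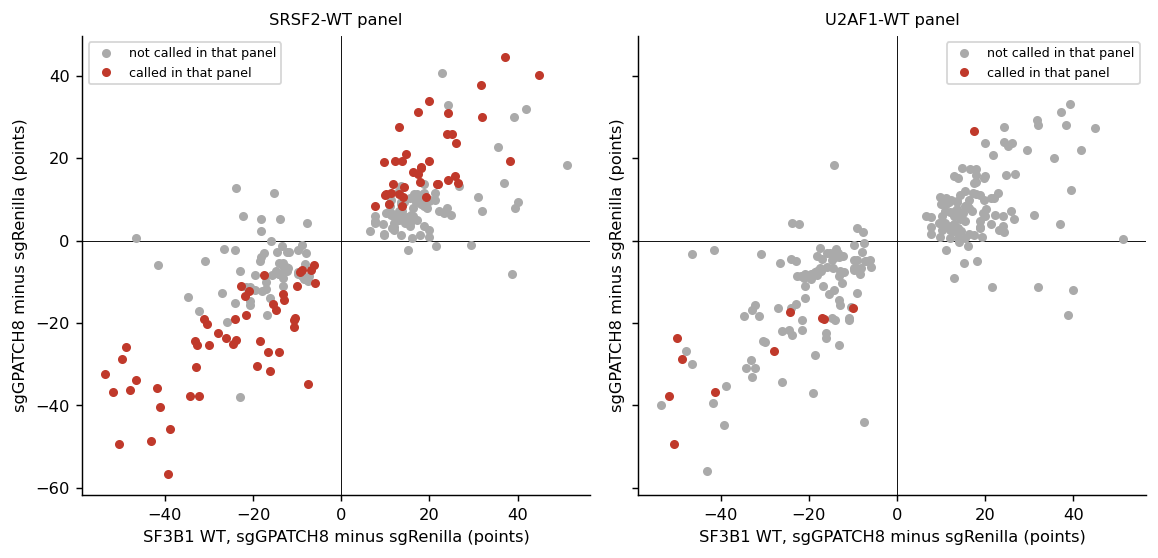
Difference sgGPATCH8 minus sgRenilla (points) in SF3B1 WT cells (x axis) against the same difference in the SRSF2-WT (left) and U2AF1-WT (right) panels (y axis), 1 point for each of the 231 events set apart the same way in SF3B1 WT and K700E cells that was tested there; red points are limma calls in that panel. Of the points, 212 of 225 and 207 of 222 have the same sign on both axes.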

How the data were processed

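Poly(A)-selected RNA from K562 cells was made into strand-specific libraries, per the labels' protocols. The authors deposited 1 table a panel with, for each of 110816 splicing events with hg19 coordinates (2 further rows had none), the fraction of transcripts of the first isoform, from 0 to 1. The submitters' processing notes name RSEM 1.2.4, Bowtie and TopHat2 2.0.8b. Read numbers behind a value are not in the tables, so its depth is unknown and no interval was computed from counts. Runs of a library were averaged before tests. Log-odds with an offset of 0.01 were fitted with limma 3.58.1 (R 4.3.3), all 10 libraries of the SF3B1 panel together, with Benjamini-Hochberg adjustment. Tested events had a value in every library and a group mean of at least 5% and another of at most 95%. The SRSF2 and U2AF1 panels were fitted apart, each with all its libraries, including those with SRSF2 P95H or U2AF1 S34F. Labels do not say that libraries came from separate cultures, so p-values measure the spread between these libraries. The script was tested on simulated data. Genes were named by matching junction lengths to GENCODE 29, for 93.1% of events. Deviations of same-numbered U2AF1 libraries correlated at 0.357, 0.123 and 0.124, so numbers pair samples there; in the SRSF2 panel the correlations were at most -0.00259, and in the SF3B1 panel 0.0184. Named genes are GPATCH8, SUGP1, SF3B1 and DHX15, the calls, the 12 largest differences each way among events set apart with unadjusted p under 0.05, and up to 3 events by lowest p of each of 21 gene lists; further named genes were chosen after their values were seen. Members and lists were chosen with earlier results of these data known. Alternatives covered the offset, filters, runs, guides left out, transformation and the replicate block. Some sequences are not reported here.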

Additional observations from a re-analysis of the deposited data

Results flagged for a closer look

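The limma interaction test of sgGPATCH8 and genotype called 15 events, with 14 lower and 1 higher in K700E relative to WT. In all 15, the values that stand apart are in run 2 of both WT sgGPATCH8 libraries and of K700E sgRenilla. The calls are therefore not read as a difference between the genotypes. One of the 15 is the tandem untranslated region on chromosome 3 that was called in WT, with an interaction of -23.0 points (limma adjusted p = 0.01). Among the sgRenilla and sgGPATCH8 columns of both genotypes it was above 0 in run 2 of the 2 WT sgGPATCH8 libraries (18 and 20%) and in run 2 of K700E sgRenilla (27%). The same 3 columns have the highest median usage of tandem untranslated regions, 56, 58 and 61%, against 30 to 45% in the other 17 columns of the panel, and their part in the result was not tested. With tandem untranslated regions left out, and in run 1 alone, the interaction test called 0 events.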

How the results depend on the processing

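Of the 154 alternative values of the 27 named events recomputed, all kept their direction. The number of calls did not hold, and the causes were not tested. The 3 WT calls became 35 with no limit on group means, 0 in run 1 alone, 6 in run 2 alone (all higher), 154 with both runs as columns (which treats runs as libraries), 25 on untransformed fractions, 5 for the mean of the WT and K700E contrasts (chosen after seeing the data), and 0 with the replicate block, without either guide, with the 5 WT libraries only or with the 3 compared libraries only. The 7 K700E calls became 30 with an offset of 0.05, 60 with no limit, 4 with limits of 10% and 90%, 0 in run 1, 36 in run 2, 196 with both runs as columns, 58 untransformed, 2 without tandem untranslated regions, and 0 with the replicate block or without either guide. The 15 interaction calls became 39, 111, 0 (run 1), 310 (run 2), 0 (both runs as columns) and 133 for the same settings, and 0 with the replicate block, without tandem untranslated regions or without any 1 guide library. The unadjusted counts for WT were 4221 in run 1, 4659 with the block, 4593 and 4775 without a guide, 4604 with 5 libraries and 4525 with 3. The SRSF2-WT calls went from 216 to 120 with the replicate block and 104 to 120 without 1 replicate. They were 0 with the compared groups only, which leaves out the SRSF2 P95H libraries. The 14 U2AF1-WT calls became 25 with the replicate block and 3 to 12 without 1 replicate (3 without sgRenilla replicate 2). They were 0 with the compared groups only, which leaves out the U2AF1 S34F libraries. Same-numbered guides of the SF3B1 panel and same-numbered libraries of the SRSF2 panel did not deviate together. The 1454 events set apart became 513 with a gap of 10 points, 6212 with any gap, 3945 to 4186 without 1 guide, 12905 in run 1 and 13848 in run 2. The 231 shared events became 93 with a gap of 10 points (5 opposite), 2363 in run 1 (1860 opposite) and 1977 in run 2 (2650 opposite). Read depth behind each value is unknown, and 1 control library limits every WT test.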

Other observations

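A few further events set apart in both SF3B1 genotypes, chosen after their values were seen, are given as values. CTTN, an actin-binding protein of the cell cortex, included an exon after intron 10 in 67 and 68% with sgRenilla, 39 and 38% with guide 16 and 29 and 31% with guide 17. KIF23, a kinesin of cytokinesis, included an exon after intron 7 in 24 and 21%, 13 and 15%, and 9 and 10%. CENPE, a kinetochore kinesin, lay the other way, at 30 and 31%, 48 and 44%, and 41 and 51%. BNIP2, a partner of BCL2, was at 17 and 14%, 5 and 7%, and 3 and 5%.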
